A study of Xenopus tropicalis with 30 samples.

Results

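The 5′ and the 3′ ends of transcripts were compared within loci in 6 adult male *Xenopus tropicalis* (the western clawed frog). Reading each strand in the direction of transcription, a locus opened with 1 or more transcription start sites, went on to 1 or more poly(A) sites, and was closed where the next start site came or where a gap of over 20000 bases lay between sites. Of the 28539 loci built from all sites of the series, 12 lay on 1 unplaced scaffold that was left out. Of the 28527 that remained, 27883 had male counts at 1 end or more and are the loci described here. The start end was read by WTSS-seq from RNA depleted of ribosomal RNA (6 male libraries). The poly(A) end was read by WTTS-seq from RNA that was fragmented and enriched by its poly(A) tails (6 male libraries). Per the series design the same 6 males entered both sets. The labels give whole body as the tissue and adult as the stage, with no strain, age in weeks or treatment. Libraries of 6 adult females per assay were used to test whether the male difference between ends departed from the female one. Female levels and differences were also correlated, as a description. Loci were built from all listed sites of the series, so sites without male counts also shaped them. In whole bodies, fewer cells of a type and less RNA per cell cannot be told apart.

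A gene is transcribed from a start site at its 5′ end, where the RNA is capped, to a poly(A) site at its 3′ end, where the RNA is cleaved and a tail of adenosines is added. Many genes use several start sites and several poly(A) sites, and many RNAs made by other polymerases carry no poly(A) tail. A read at a start site and a read at a poly(A) site each stand for an end of a molecule, so levels were not divided by length. The assay and the end of the transcript cannot be told apart in this design, since each end was read by a library type of its own. A difference between ends is therefore one of relative level within libraries, not of molecules.

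Male start libraries held 1866839 to 6643184 counts and male poly(A) libraries 2304469 to 5031300 counts. Loci took 68.2% to 88.9% of the counts in start libraries and 89.2% to 94.0% in poly(A) libraries. Of the 6 male start columns, 3 could not be tied to a numbered male, because 1 is headed Male3 and 2 are headed Male4, against males 2, 3 and 4 in the labels. The first library headed Male4 stood apart: it was the shallowest start library, 26.1% of its counts lay on the left-out scaffold, and 68.2% lay in loci. In the other start libraries 4.82% to 8.71% of the counts lay on that scaffold, against 0.0125% to 0.0596% in the poly(A) libraries. Without this library 11155 of 14744 loci tested differed between their ends, against 10131 of 13100 with it. The rise was not particular to this library. Leaving out any 1 of the 12 male libraries gave 10582 to 11211 loci that differed, with 13921 to 14744 tested. No pair of male libraries of 1 assay agreed within sampling noise: chi-square per locus was 25.9 or more in every pair, and 64.2 between the 2 libraries headed Male4.

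Libraries with the same number did not deviate together at the 2 ends in males 1 and 5, and did so in male 6. Over 1826 loci whose means were 10 CPM or more at both ends (CPM, counts per 1000000 counts), the log2 deviations of the start and the poly(A) library of male 1 correlated at r = -0.04, those of male 5 at -0.23 and those of male 6 at 0.30. The start library of male 1 deviated most like the poly(A) library of male 5 (0.35), and that of male 5 most like the poly(A) library of male 4 (0.47). The library headed Male3 was nearest to poly(A) male 2 (0.48), the first library headed Male4 to poly(A) male 1 (0.49), and the second to poly(A) male 3 (0.43). The 6 start libraries thus had 6 different nearest poly(A) libraries, of which 1 bore the same number. Libraries were kept under their labels. No comparison below pairs them, except a replicate block in males 1, 5 and 6 that was run as an alternative.

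**Figure D1:**
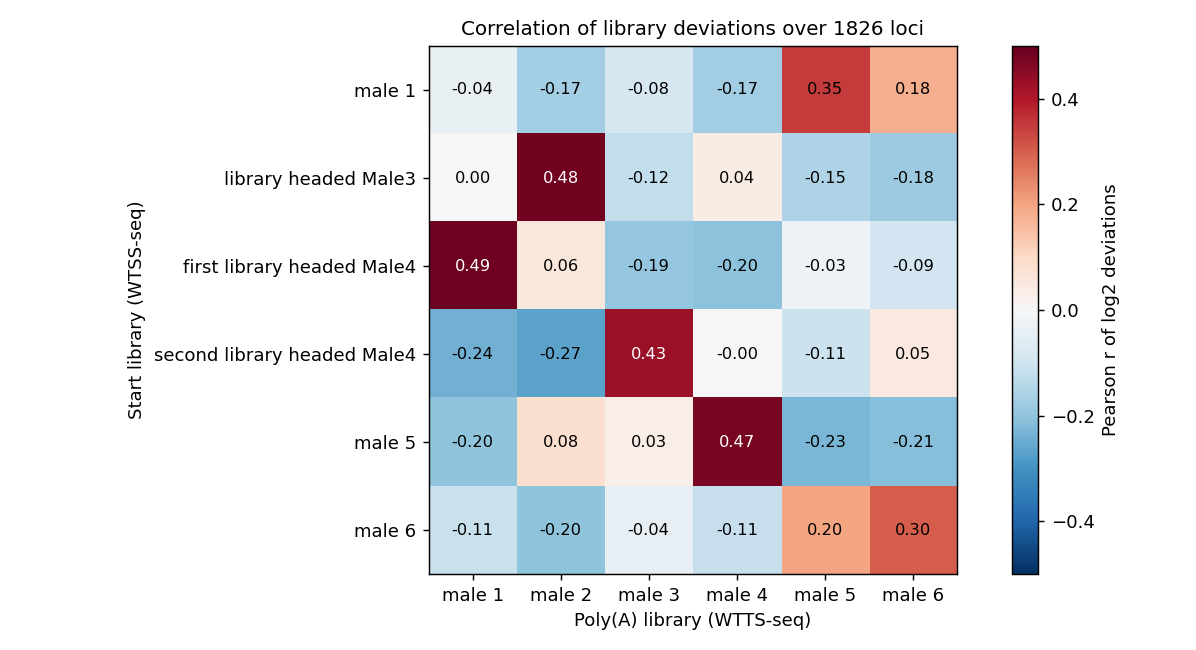
Pearson correlation between each male start library (rows, WTSS-seq) and each male poly(A) library (columns, WTTS-seq) of their log2 deviations from the mean of their own assay, over 1826 loci; colour and number both give r. The highest value in each row falls in a different column, and in the row of male 6 it falls on the same number.

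Of the 28527 loci, 22415 had male counts at both ends, 4181 at the start end only, 1287 at the poly(A) end only and 644 at neither. They held 59864 of the 69857 start sites and 63004 of the 98277 poly(A) sites in the tables. A locus had a median length of 4844 bases, with the middle of the distribution between 1111 and 12588 bases. A single start site was listed in 51.4% of loci, a single poly(A) site in 48.8% and 1 of each in 25.01%. The most in a locus were 27 start sites and 19 poly(A) sites.

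The level at the start of a male locus said little about the level at its end. Across 10926 loci whose means were 1 CPM or more at both ends, the log2 levels correlated at r = 0.22 (Spearman's rho 0.14). The points share their libraries and are not independent, so these values describe the loci and were not tested. Among 1826 loci at 10 CPM or more r was 0.34, and among 161 loci at 100 CPM or more it was 0.45. Between libraries of 1 assay the ranking of the 10926 loci was much closer. Spearman's rho was 0.71 to 0.84 between start libraries (median 0.77 over 15 pairs) and 0.61 to 0.80 between poly(A) libraries (median 0.72 over 15 pairs). Between a start and a poly(A) library it was 0.03 to 0.20 (median 0.13 over 36 pairs).

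The correlation depended on whether neighbouring loci were joined. With neighbouring loci on 1 strand joined wherever the gap was at most 20000 bases, 12659 loci were built, and 8479 of them had 1 CPM of the library totals or more at both ends. Their levels correlated at r = 0.54 (rho 0.50), against r = 0.20 (rho 0.13) over 10867 loci as defined on the same scale. Joining neighbours was tried after the data had been seen. A joined locus can hold several genes, whose counts are then summed at each end. The part of this summing in the higher correlation was not tested. Leaving out every site under 1 CPM gave r = 0.24, a gap of 5000 bases gave 0.21 and a gap of 50000 bases gave 0.19. Loci with 1 start site and 1 poly(A) site had r = 0.14 (1541 loci), and those with 2 or more sites at both ends 0.27 (4216 loci).

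**Figure D2:**
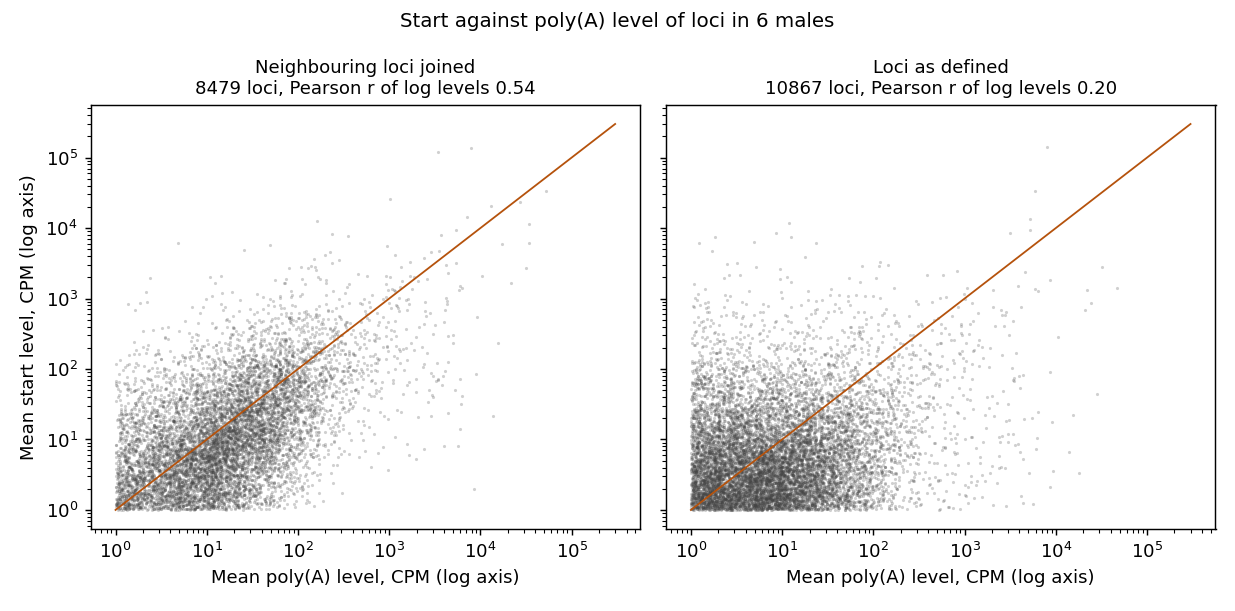
Mean start level (WTSS-seq) against mean poly(A) level (WTTS-seq) over 6 male libraries each, in CPM of the library totals on log axes, with 1 point per locus and the line of equal levels. The 8479 joined loci (left) follow a rising trend with r = 0.54 and scatter on both sides of the line, and the 10867 loci as defined (right) show little trend, with r = 0.20.

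In 13100 loci with enough counts for the test, 10131 differed between their ends (77.3% of those tested, edgeR's quasi-likelihood test, adjusted p under 0.05). The start end was higher in 5832 (44.5%) and the poly(A) end in 4299 (32.8%). These include loci with no count at 1 end, whose calls were fixed by the filter on low counts. Among the 11972 tested loci with counts at both ends, the start end was higher in 4835 and the poly(A) end in 4168, and 2969 were not called. In 8213 loci (62.7%) the 6 start libraries and the 6 poly(A) libraries did not overlap. Differences were large: their median size was 3.29 on the log2 scale, 41.6% of loci differed more than 16-fold, and 17.1% lay within 2-fold. More than 64-fold lay 23.6%, with loci at 0 at 1 end taken at 3 counts over the group. A locus could pass the filter on low counts through 1 end alone. Loci with few counts at the other end are therefore among those tested, beside the loci at 0. They can raise the shares called, without overlap and beyond each fold, and by how much was not tested. Means of 10 CPM or more at both ends were reached by 1826 loci. The balance of the directions depended on the scaling. The median difference was 0.71 with TMM factors, -0.18 with library totals alone and 1.24 with RLE size factors, and the start end was higher in 57.6%, 48.4% and 63.2% of the loci called. With neighbouring loci joined, 5410 of 8300 loci differed, 2689 with the start end higher and 2721 with the poly(A) end higher, and the median size was 1.73.

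Loci higher at the start more often had a locus close downstream, and loci higher at the poly(A) end more often had one close upstream. A locus downstream on the same strand within 20000 bases followed 74.7% of the 5832 loci higher at the start, 37.8% of the 4299 higher at the poly(A) end and 45.2% of the 2969 not called (55.9% of all tested). Its poly(A) level was above that of the locus itself in 47.3%, 4.77% and 13.2% of these classes (25.6% of all tested). A locus upstream within that distance preceded 48.8% of the loci higher at the start, 72.0% of those higher at the poly(A) end and 56.4% of those not called (58.2% of all tested). Its start level was above that of the locus itself in 12.2%, 46.9% and 19.1% (25.2% of all tested). The classes were formed on the levels of the locus itself, so a locus low at 1 end is more easily exceeded there by a neighbour, and these shares are a description. The definition closes a locus at any start site that follows a poly(A) site. A transcript with an inner poly(A) site followed by an inner start site is therefore divided into neighbours. How many of the differences come from such divisions was not tested.

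The number of sites listed at an end moved with the difference. The smallest total of a listed site was 25 counts, so the number of sites listed at an end can itself depend on the counts there. Counts were also summed over the sites of an end, and a locus could pass the filter through 1 end alone. The part of each of these in the trend was not tested, so the trend is a description. The median difference was -0.66 in loci with 1 start site, 0.65 with 2, 1.70 with 3 to 5 and 2.99 with 6 or more. It was 3.64 in loci with 1 poly(A) site, 0.61 with 2, -0.82 with 3 to 5 and -1.86 with 6 or more. The size of the difference was smaller in longer loci. Its median was 4.15 under 2000 bases (3659 loci), 3.12 from 5000 to under 10000 (2393 loci) and 2.17 at 50000 bases or more (87 loci). The median size also varied with site number: 4.65 with 1 poly(A) site, 3.09 with 2, 2.44 with 3 to 5 and 2.53 with 6 or more. Length in turn depends on where the definition closes a locus. The part of each in the trend with length was not tested, so that trend is a description too. The distance from the highest start site to the highest poly(A) site could be measured in the 11972 tested loci with counts at both ends. It had a median of 3837 bases in 4835 loci higher at the start, 1713 in 4168 loci higher at the poly(A) end and 4171 in 2969 loci not called. It was under 300 bases in 19.7%, 15.2% and 12.0% of them, and in 16.2% of the 11972.

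The 5 loci with the highest start levels included 3 whose poly(A) end held 16 counts or fewer over all males. The site tables name no genes, so each locus is given by its position, and the genome build is not given in the sources used here. The highest start level belonged to the locus at positions 61406537 to 61412937 on the plus strand of chromosome 5, with 10 start sites and 1 poly(A) site. Its start libraries ran from 141032 over a median of 194354 to 235952 CPM, and its poly(A) libraries from 3757 over 5462 to 8472 CPM. The groups did not overlap, and the poly(A) end was itself among the 100 highest of its kind. The difference was 5.02 on the log2 scale (SE 0.36, adjusted p = 1.43e-08). A single start cluster at position 61406537 held 95.2% of the start counts.

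The second was the locus at 7178506 to 7178595 on the plus strand of chromosome 9, a stretch of 90 bases with 1 site of each kind. It reached 88780 CPM in the lowest start library, 179126 at the median and 248564 in the highest, while poly(A) libraries held 0 to 1.61 CPM and 16 counts in all. The groups were far apart. The chromosome 5 locus took 14.3% ± 0.903 of the start counts in loci and 0.811% ± 0.237 of the poly(A) counts, and the chromosome 9 locus took 12.4% ± 3.18 of the start counts and 7.19e-05% ± 8.75e-05 of the poly(A) counts (SD, n = 6 each). Next came the locus at 105388814 to 105391300 on the plus strand of chromosome 7, at 14698, 51462 and 69374 CPM in the lowest, median and highest start library and 3496, 4368 and 5539 CPM in the poly(A) libraries. It was high at both ends, and still differed by 3.44 (SE 0.39, adjusted p = 1.03e-06).

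The locus at 1470715 to 1471249 on the minus strand of chromosome 10 was high at the start and had no male poly(A) count. Start libraries held 15291, 29558 and 49556 CPM (lowest, median, highest), which is at least 292264-fold above 3 poly(A) counts over the group. A further locus with the same pattern began 995 bases downstream, at 1469484 to 1469720, with 8011 CPM at the start and 0.0303 CPM at the poly(A) end. On the plus strand of chromosome 4, the locus at 12626401 to 12629981 had 15917, 25089 and 39578 CPM in start libraries and a single poly(A) count, in male 2. The ratio was 807291 (95% interval 144893 to 31886300, counting error of that single count only).

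The highest poly(A) levels were less extreme, and their start ends were all detected. Highest was the locus at 105372692 to 105374171 on chromosome 7, plus strand. Its levels were 1503, 1925 and 2410 CPM in the lowest, median and highest start library, against 25195, 34688 and 42179 CPM in the poly(A) libraries. The difference was -4.20 (SE 0.32, adjusted p = 2.41e-08) with no overlap. This locus ends 14643 bases before the chromosome 7 locus just described, so the neighbours have opposite differences. Just upstream, 278 bases away, lay a locus with 321 CPM at the start and 0.0222 CPM at the poly(A) end.

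A locus at 36978758 to 36979096 on the minus strand of chromosome 9 had 32.8, 50.5 and 105 CPM in start libraries and 11192, 17132 and 42647 CPM in poly(A) libraries. These do not overlap, and the difference of -8.43 (SE 0.55, adjusted p = 7.96e-09) was among the 6 largest toward the poly(A) end of loci with 10 or more counts in every library. The locus 1163 bases upstream, at 36980259 to 36980395, showed the reverse, with 1486 CPM at the start and 0.593 CPM at the poly(A) end. On unplaced scaffolds, the plus-strand locus at 57890 to 63932 had 3662 ± 2485 CPM at the start and 24984 ± 19687 CPM at the poly(A) end (SD, n = 6 each), a difference of -2.77 (SE 0.62, adjusted p = 0.000688). Another plus-strand scaffold locus, at 11611 to 13345, had 1766 ± 470.3 CPM at the start and 16646 ± 7639 CPM at the poly(A) end (SD, n = 6 each), a difference of -3.24 (SE 0.40). Of the 10 named loci high at the poly(A) end, 8 had an upstream locus within 20000 bases, and in 7 of these the start level of that neighbour was above its poly(A) level. The exception was the chromosome 6 locus at 130447212, whose neighbour 565 bases upstream had 12.9 CPM at the start and 57.7 CPM at the poly(A) end. Of the 11 named loci high at the start, 7 had a downstream locus within that distance, and in 1 of these the poly(A) level of the neighbour was above its start level. These counts compare the ends of the neighbour with each other, unlike the shares given earlier, which compare it with the locus itself. The share over all loci was not determined, so the counts are a description.

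Mitochondrial transcripts are polyadenylated after they are cut from long precursors, and neighbouring loci of the plus strand of the mitochondrial sequence differed in opposite directions. The locus at 298 to 1237 had 615, 869 and 2169 CPM in the lowest, median and highest start library and 13032, 18155 and 21888 CPM in the poly(A) libraries (difference -4.08, SE 0.39, adjusted p = 1.95e-07). The next, at 1598 to 9187, had 9598, 16487 and 20389 CPM in start libraries and 4.93, 7.35 and 16.3 CPM in poly(A) libraries (difference 10.78, SE 0.55, adjusted p = 2.05e-09). Neither overlapped between its ends. All poly(A) counts of the first came from a single cluster that the table gives as 33 to 8844, a width of 8812 bases, and this cluster spans most of the second locus. Its counts belong to the first locus because the table lists the cluster at position 1237. A further locus, at 11276 to 14261, was high at both ends, with 10335 ± 6991 CPM at the start and 2350 ± 763 CPM at the poly(A) end (SD, n = 6 each). It still differed, with the start end higher and no overlap (difference 2.14, SE 0.42, edgeR adjusted p = 0.000217).

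The 100 loci highest at the start and the 100 highest at the poly(A) end shared 14. By the choice of the lists most members differ in the direction of their list: 87 of the start list were higher at the start and 5 at the poly(A) end, and of the poly(A) list 5 were higher at the start and 90 at the poly(A) end. Loci of the start list had a median rank of 5984 among poly(A) levels, and those of the poly(A) list a median rank of 3093 among start levels. Loci under 2000 bases made up 34 of the start list and 41 of the poly(A) list, against 33.9% of all loci.

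Among loci with 10 or more counts in every male library at both ends, the 6 largest differences in each direction ranged from 6.66 to 10.78 toward the start and from -8.84 to -7.32 toward the poly(A) end. Large values were a condition of their choice, so they are given as a description. In length the loci ran from 851 to 38697 bases toward the start and from 126 to 4376 bases toward the poly(A) end. The 10.78 belongs to the mitochondrial locus at 1598 to 9187. There the counts of a poly(A) cluster that spans most of the locus were assigned to the locus before it. Beside this locus, the start was highest relative to the end at 108065171 to 108066021 on the minus strand of chromosome 5. Start libraries held 7024, 8360 and 20227 CPM there, and poly(A) libraries 2.21, 7.77 and 17.5 CPM (lowest, median, highest). The minus-strand locus at 12613335 to 12647139 on chromosome 4 spans 33805 bases and overlaps, on the opposite strand, the chromosome 4 locus with a single poly(A) count. Its start level was 7675 ± 5718 CPM and its poly(A) level 17.01 ± 6.91 CPM (SD, n = 6 each).

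On the minus strand of chromosome 9, the locus at 32699193 to 32718597 had 1 start site and 9 poly(A) sites, with 5384 ± 1448 CPM at the start and 13.3 ± 4.77 CPM at the end. The reverse site numbers were seen at 9263086 to 9286821 on the plus strand of chromosome 10, where 22 start sites summed to 1780 ± 617 CPM and 1 poly(A) site held 14.1 ± 2.55 CPM. At 143009290 to 143047986 on the plus strand of chromosome 5 the levels were 429 ± 103 CPM at the start and 4.19 ± 2.80 CPM at the poly(A) end (SD, n = 6 for each of these values).

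In the other direction, at 23817898 to 23818507 on the minus strand of chromosome 10, start libraries held 5.55, 9.25 and 14.1 CPM and poly(A) libraries 3169, 4321 and 6570 CPM (lowest, median, highest). On chromosome 6 the minus-strand locus at 130447212 to 130447337, of 126 bases, had 23.98 ± 6.31 CPM at the start and 6785 ± 2144 CPM at the poly(A) end (SD, n = 6 each). The locus at 134364972 to 134367608 on the minus strand of chromosome 2 had 28.6 ± 9.56 CPM at the start and 11465 ± 2843 CPM at the poly(A) end (SD, n = 6 each), with 1 start site and 7 poly(A) sites. Some 627 bases upstream lay a locus with 161 CPM at the start and 1.00 CPM at the poly(A) end. The plus-strand locus at 87493260 to 87497635 on chromosome 1 had 11.4 ± 4.71 CPM at the start and 2824 ± 596 CPM at the poly(A) end, and the plus-strand scaffold locus at 336674 to 339172 had 16.03 ± 5.14 CPM at the start and 2572 ± 1558 CPM at the poly(A) end (SD, n = 6 each).

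**Figure D3:**
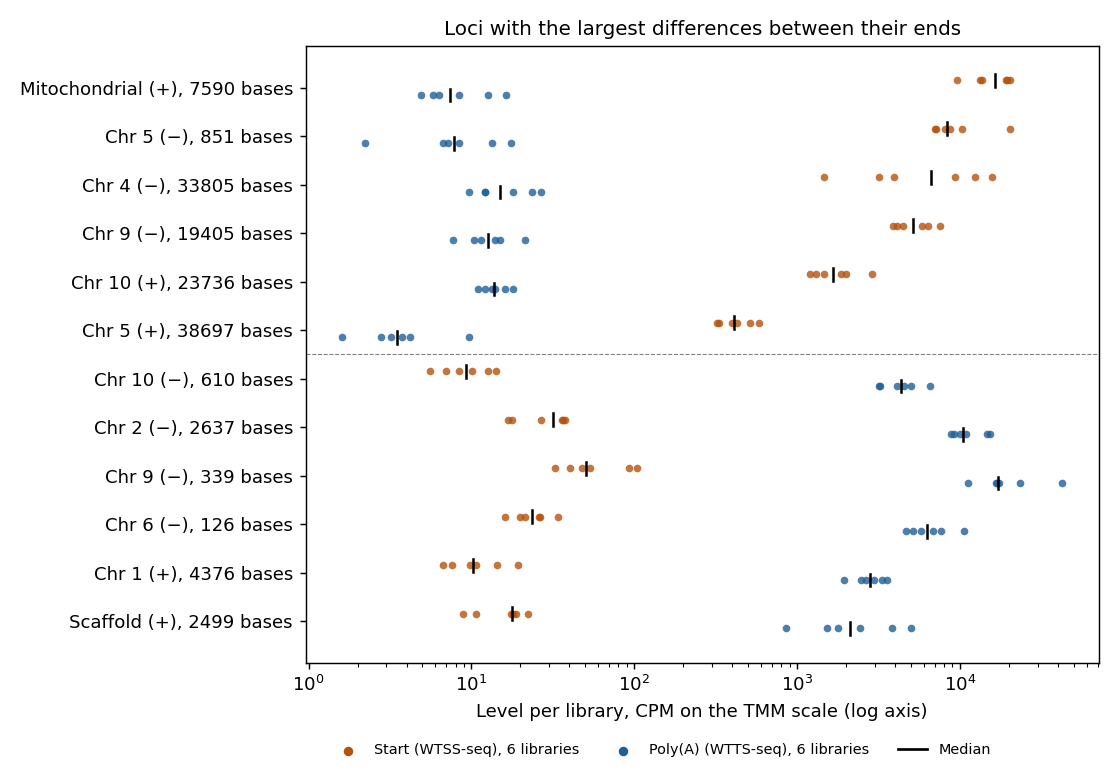
Level per library in CPM on a log axis for the 6 loci with the largest difference toward the start (above the dashed line) and the 6 with the largest toward the poly(A) end (below it), among loci with 10 or more counts in every male library at both ends and no overlap; each row has 6 start libraries in its upper line and 6 poly(A) libraries in its lower line, with the median as a bar. No row overlaps between its ends, by the choice of the loci, and the spread within an end is far smaller than the gap between ends. In the mitochondrial row, the counts of a poly(A) cluster that spans most of the locus were assigned to the locus before it.

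Loci with no male count at 1 end more often lacked counts at the poly(A) end. Among the 13100 tested, 997 had no poly(A) count and 131 no start count. The totals of the listed poly(A) sites exceed the counts of their libraries, and the part of this in these numbers was not tested. These 1128 passed the filter through their other end alone, so their calls were fixed by it and add no support. After the chromosome 10 locus above, the highest starts without a poly(A) count were on the plus strand of chromosome 2, at 39501426 to 39501616 and at 151200805 to 151201022. Their start levels were 2175 ± 539 and 1931 ± 825 CPM (SD, n = 6 each), at least 20559-fold and at least 18347-fold above 3 poly(A) counts over the group.

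Without a start count, the highest was the plus-strand locus of chromosome 3 at 50784807 to 50791507. Its poly(A) libraries held 220.3, 930 and 2089 CPM (lowest, median, highest), at least 5007-fold above 3 start counts over the group. Next were the plus-strand locus of chromosome 2 at 7725358 to 7725729, with 95.7 ± 24.4 CPM at the poly(A) end (at least 517-fold), and the minus-strand locus of chromosome 7 at 28891483 to 28905011, with 69.9 ± 55.5 CPM (at least 337-fold; SD, n = 6 each). The last did not pass the filter on low counts and was not tested.

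A few loci were high at both ends and were not called. They were chosen for a difference under 0.5, so they are not shown to be equal at their ends. At 92441766 to 92446810 on the minus strand of chromosome 5 start libraries held 2457, 2949 and 4573 CPM and poly(A) libraries 2673, 3359 and 4082 CPM (lowest, median, highest). The ranges overlapped and the difference was -0.10 (SE 0.30, adjusted p = 0.768). With library totals alone it was -0.94 (adjusted p = 0.00522), with RLE factors 0.45 (adjusted p = 0.163) and with DESeq2, which uses such factors, 0.45 (adjusted p = 0.0438), so its direction depended on the scaling. A similar balance was found at 45308567 to 45315884 on the minus strand of chromosome 7, with 863 ± 312 CPM at the start and 1021 ± 303 CPM at the poly(A) end (SD, n = 6 each). That difference was -0.24 (SE 0.36, adjusted p = 0.545), and -1.16 with library totals alone (adjusted p = 0.00420).

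The minus-strand scaffold locus at 484 to 4902 had 1624 ± 1179 CPM at the start and 1598 ± 1558 CPM at the poly(A) end, and the plus-strand locus of chromosome 7 at 13590820 to 13598442 had 950 ± 1212 CPM at the start and 939 ± 987 CPM at the poly(A) end (SD, n = 6 each). Both estimates were imprecise. The edgeR differences were 0.024 (SE 0.67, adjusted p = 0.976) at the scaffold locus and 0.016 (SE 0.75, adjusted p = 0.986) at the chromosome 7 locus. In the chromosome 7 locus 1 library at each end stood far above the rest: the first library headed Male4 at the start (3372 CPM) and male 1 at the poly(A) end (2831 CPM).

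Some loci varied strongly between males at both ends. At 62543450 to 62549251 on the plus strand of chromosome 2, start libraries held 2.53, 21.5 and 1003 CPM and poly(A) libraries 1.41, 40.9 and 1490 CPM (lowest, median, highest). The highest start library was male 1 and the highest poly(A) library male 5. The difference of -0.61 (SE 1.45, adjusted p = 0.709) became -3.78 without the start library of male 1 (adjusted p = 0.0233). The highest start site of this locus, at 62548928, lies close to its poly(A) site at 62549251 and held 79.3% of the start counts.

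The minus-strand locus of chromosome 3 at 35105942 to 35116182 had 14.4, 691 and 4128 CPM in start libraries and 3.82, 416 and 2000 CPM in poly(A) libraries. There too the highest libraries were male 1 at the start and male 5 at the poly(A) end, and the lowest were the second library headed Male4 and poly(A) male 3. A plus-strand scaffold locus at 11290 to 14511 had 443, 1119 and 3960 CPM in start libraries and 11.1, 2492 and 10292 CPM in poly(A) libraries, highest in the library headed Male3 and in poly(A) male 2. These are the pairs of libraries that deviated most alike over the 1826 loci. The loci named here are part of the 1826 and were chosen for their wide range, so the match is a description.

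Start counts were concentrated in fewer loci. Of the counts in loci, the upper 50% lay in 32.2 ± 5.85 loci in start libraries, range 23 to 39, and in 68.7 ± 19.5 loci in poly(A) libraries, range 46 to 98 (SD, n = 6 each, exact two-sided permutation p = 0.00216, the smallest that 6 libraries against 6 can give). The chromosome 5 and chromosome 9 loci with the highest start levels alone held 14.3% and 12.4% of the start counts. The comparison was not repeated with them capped or left out. The 100 highest loci of a library held 60.3% ± 0.884 of its counts at the start and 56.7% ± 4.60 at the poly(A) end (SD, n = 6 each), a difference that did not pass (exact permutation p = 0.0887). It passed without poly(A) male 2 (4.66 percentage points, exact permutation p = 0.0216) and without poly(A) male 3 (4.51, exact permutation p = 0.0325).

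Use of sites within an end was more even at the start. In 834 loci that averaged 10 CPM or more and had 2 or more sites at both ends, the highest site held 73.1% ± 0.933 of the start counts and 86.1% ± 0.916 of the poly(A) counts (SD, n = 6 each, exact permutation p = 0.00216). The 6 libraries of each end did not overlap. These loci had a mean of 4.19 start sites and 3.47 poly(A) sites, so the number of sites moved with the result. Its part in the difference was not tested. Levels varied less between start libraries: the median distance of a locus to the median of the other libraries of its assay was 0.455 ± 0.0822 at the start and 0.594 ± 0.0608 at the poly(A) end on the log2 scale (SD, n = 6 each, 1710 loci, exact permutation p = 0.00866). Each value is taken against the other libraries of its end, so the values of an end are not independent and this p is approximate. TMM factors were not applied here, so scaling between libraries can be part of these distances.

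Loci of 5000 to under 10000 bases took 28.6% ± 2.00 of the start counts and 16.9% ± 2.16 of the poly(A) counts (SD, n = 6 each). Shorter loci took less of the start counts. Those under 2000 bases held 35.8% ± 2.79 at the start and 42.6% ± 2.20 at the poly(A) end, and those of 2000 to under 5000 bases 18.3% ± 0.760 at the start and 22.0% ± 1.33 at the poly(A) end (SD, n = 6 each). Adjusted over the 6 classes, the exact permutation p was 0.00649 for the classes that start at 2000 and at 5000 bases, in which the libraries of the 2 ends did not overlap, and 0.00866 for loci under 2000 bases. Loci of 10000 to under 20000 bases held 10.6% ± 0.427 at the start and 12.3% ± 1.21 at the poly(A) end (SD, n = 6 each, adjusted exact permutation p = 0.0195). That call was lost without both libraries headed Male4 (adjusted exact permutation p = 0.0643) and with a gap of 5000 bases, where the class held 2.26% at both ends. The 2 classes of longer loci did not pass (adjusted exact permutation p = 0.288 from 20000 to under 50000 bases and 0.119 at 50000 or more).

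A few loci weighed on these shares. The chromosome 5 locus that held 14.3% of the start counts falls in the class of 5000 to under 10000 bases. With each locus capped at 1000 CPM in each library, that class held 20.8% ± 0.355 at the start and 18.2% ± 0.539 at the poly(A) end (SD, n = 6 each), and the class of 10000 to under 20000 bases turned to 18.36% at the start and 18.32% at the poly(A) end. The class of 20000 to under 50000 bases then passed, with 11.2% at the start and 9.203% at the poly(A) end (adjusted exact permutation p = 0.00433).

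**Figure D4:**
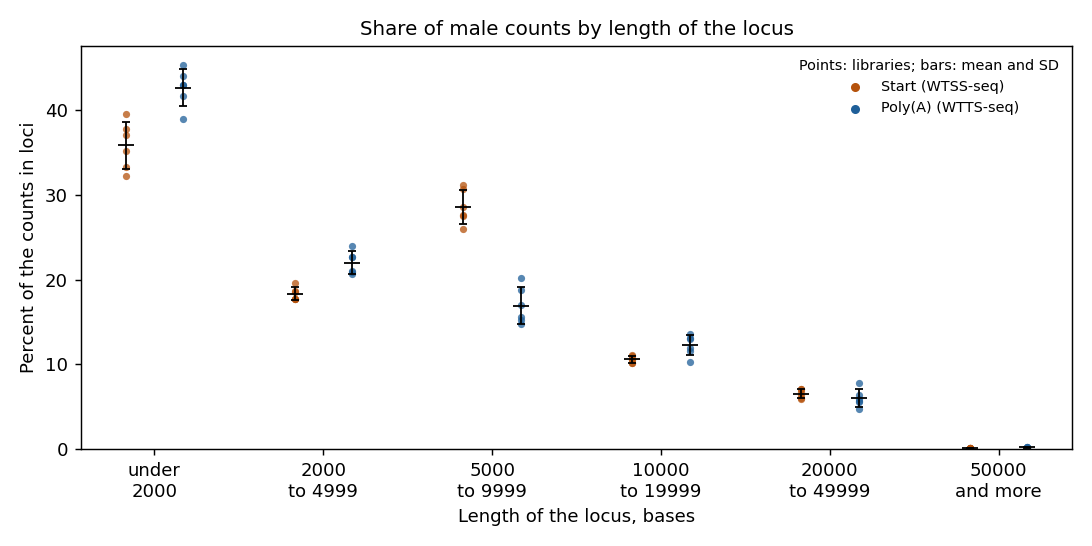
Percent of the counts in loci that fell in each class of locus length, with 1 point per male library (6 start, 6 poly(A)) and the mean and SD as bars. The start libraries lie above the poly(A) libraries from 5000 to under 10000 bases (28.6% against 16.9%) and below them from 2000 to under 5000 bases (18.3% against 22.0%), with no overlap in either class.

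Shares by chromosome differed most for chromosome 5, the unplaced scaffolds and chromosome 9. Chromosome 5 held 18.7% ± 1.13 of the start counts and 5.48% ± 0.511 of the poly(A) counts, and chromosome 9 held 17.2% ± 3.49 of the start counts and 8.59% ± 1.77 of the poly(A) counts (SD, n = 6 each, adjusted exact permutation p = 0.00433 for both). Unplaced scaffolds held 7.84% ± 1.88 of the start counts and 19.5% ± 5.98 of the poly(A) counts (SD, n = 6 each, adjusted exact permutation p = 0.00433). Chromosome 10 was higher at the start, at 6.76% of the start counts against 4.81% of the poly(A) counts, and chromosomes 1, 2, 6, 7 and 8 were lower at the start. Chromosomes 3 and 4 and the mitochondrial sequence did not pass.

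With each locus capped at 1000 CPM, chromosome 5 held 7.04% at the start and 6.96% at the poly(A) end (adjusted exact permutation p = 0.751), and chromosome 9 held 7.001% at the start and 6.79% at the poly(A) end (adjusted exact permutation p = 0.294). Chromosome 10 kept its direction, at 6.55% at the start and 5.37% at the poly(A) end, and so did the scaffolds, at 9.62% at the start and 11.5% at the poly(A) end. Chromosomes 2, 3, 7 and 8 then turned the other way, with 12.7%, 10.48%, 9.65% and 10.4% at the start and 11.7%, 9.93%, 9.55% and 9.67% at the poly(A) end. Of these, chromosome 7 did not pass under the cap (adjusted exact permutation p = 0.777). Chromosome 4 then passed, at 9.58% at the start and 11.2% at the poly(A) end (adjusted exact permutation p = 0.00519), and chromosomes 1 and 6 no longer did (adjusted exact permutation p = 0.0942 and 0.193). Chromosome 1 also lost its call without both libraries headed Male4 (adjusted exact permutation p = 0.0514). The mitochondrial share was 2.33% ± 1.12 at the start and 2.85% ± 0.470 at the poly(A) end (SD, n = 6 each, adjusted exact permutation p = 0.325). Without the first library headed Male4 it was 1.91% at the start and 2.85% at the poly(A) end (adjusted exact permutation p = 0.0130). With the cap it was 0.904% at the start and 0.570% at the poly(A) end (adjusted exact permutation p = 0.00519).

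**Figure D5:**
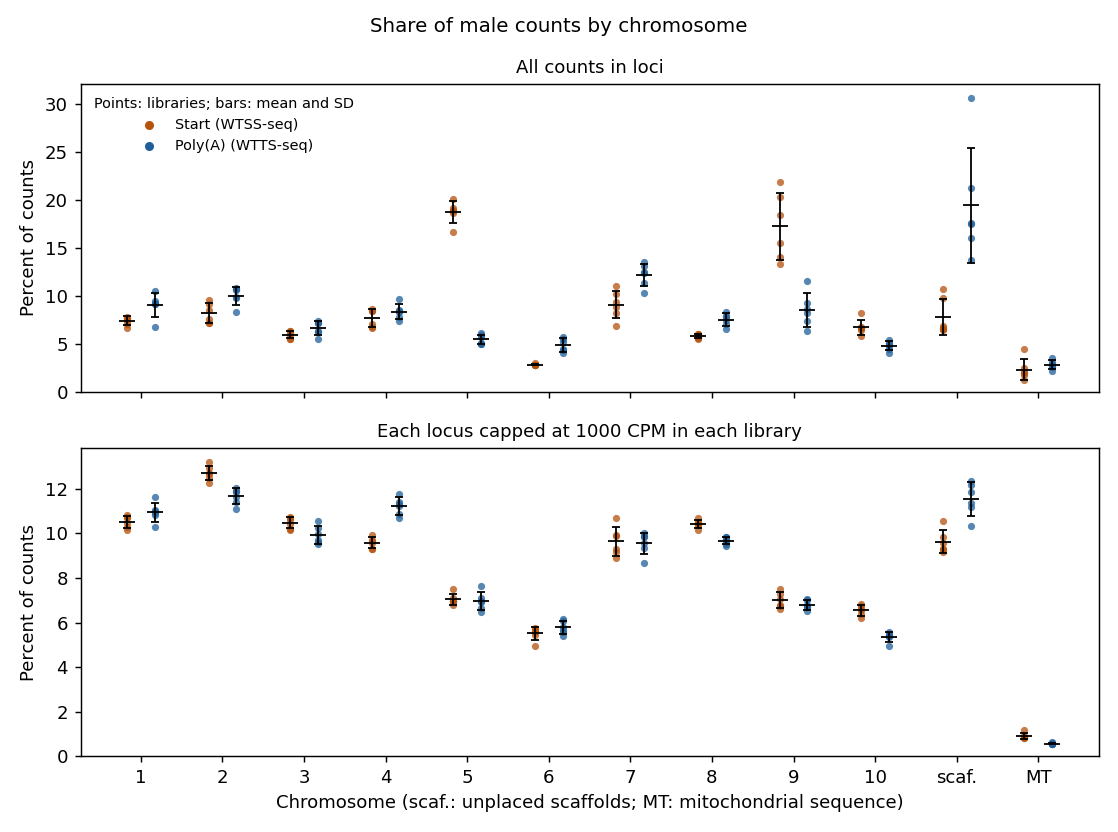
Percent of the male counts in loci by chromosome, with 1 point per library (6 start, 6 poly(A)) and the mean and SD as bars, from all counts (upper panel) and with each locus capped at 1000 CPM in each library (lower panel). The high start shares of chromosomes 5 and 9 (18.7% and 17.2%) are close to their poly(A) shares under the cap.

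The difference between ends in males resembled that in females. Over 21359 loci of the fit to all 24 libraries, the male and the female log2 differences correlated at r = 0.84 (rho 0.86), given as a description across loci. Levels at the start and the poly(A) end correlated at r = 0.07 in females (13183 loci) and 0.20 in males (10867 loci). Both values cover loci at 1 CPM of the library totals or more at both ends. The sex by assay term, which asks whether the difference between ends is another in males than in females, passed in 2646 of the 21359 loci (12.4%). It passed in 6 of the 33 loci named above. Of these, 3 were named for having no male count at 1 end, so their departure from the females is a description. The mitochondrial locus at 298 to 1237 had a difference of -3.39 in males and -0.16 in females (term -3.23, adjusted p = 0.00420). Its poly(A) counts come from the wide cluster that spans most of the next locus, so its difference is not that of the locus alone. At the chromosome 6 locus of 126 bases the difference was -7.45 in males and -10.05 in females (term 2.61, adjusted p = 0.0142).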

How the data were processed

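Per the file headers, the deposited tables, 1 for start sites (WTSS-seq) and 1 for poly(A) sites (WTTS-seq), list clusters of sites with a whole-number count for each library. The smallest total per site was 25 in both tables. In the poly(A) table these totals add up to 108811465 counts, against 45443280 in its 12 libraries, and the difference was not analysed here. Which poly(A) sites are listed, and so the site numbers and loci, can depend on it. For the aligner, the clustering and the genome build: not given in the sources used here. Positions were shifted to count from 1. Of the 30 libraries of the series 24 were used, and no column of another series was found (0).

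Counts were summed per locus and end. edgeR 4.0.16 (R 4.3.3) tested 6 start against 6 poly(A) libraries with the quasi-likelihood F test, TMM factors, the filterByExpr filter by assay and Benjamini-Hochberg adjustment at 0.05. Differences are log2 start minus log2 poly(A). Levels are CPM of the counts in loci on the TMM scale unless library totals are named, except in the values per library. Those used CPM of the counts in loci without TMM factors, also for their 10 CPM cut, the 1000 CPM cap and the spread between libraries. TMM factors were 0.617 to 1.03 in start and 1.14 to 1.67 in poly(A) libraries. Values per library were compared by exact two-sided permutation over 924 splits. The sex by assay term was fitted over 24 libraries. Folds against 0 use 3 counts over the group. Intervals and floors cover counting error only, since PCR reads without molecular identifiers are not independent molecules. Scripts were tested on simulated data of 13100 loci, with 100 changed by a log2 difference of 1 and 100 by 2. The fit recovered 6% and 63% of these, and 8% of its calls were false. These values hold for that setting only. In the male libraries 10131 of 13100 loci were called, and the shares recovered and false there were not tested. A locus not called is therefore not shown to be equal at its ends. Alternatives used DESeq2 1.42.0, limma 3.58.1, RLE factors, other filters, gaps, site sets, caps, left-out libraries and a replicate block. Other steps ran in Python 3.11.15 with scipy 1.17.1, pandas 2.3.3 and numpy 2.4.6.

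Replicates are separate animals per the labels. The replicate numbers were checked as pairs through males 1, 5 and 6 (correlations of deviations -0.04, -0.23 and 0.30). Only in male 6 was the poly(A) library of the same number the nearest. The 2 libraries headed Male4 were counted as 2 animals. Loci were named by rule: the 5 highest at each end, the 6 largest differences in each direction without overlap and with 10 or more counts in every library, the 3 highest with no count at the other end, the 4 highest not called with a difference under 0.5, and the 2 with the largest ratio of highest to lowest library at each end among loci at 100 CPM or more. The loci, lists and rules were chosen with earlier results of these data known. The tables name no genes, and no gene annotation of their build was used here.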

Additional observations from a re-analysis of the deposited data

Results flagged for a closer look

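Among 104 groups of 6 libraries examined (the named loci and the values per library), 11 (10.6%), all at named loci, had 1 library far from the others by Dixon's test. Chance flags about 1 in 20 groups, but the loci were not a random draw: 3 of the 11 lie at loci named for their wide range between libraries, and 1 is a single count, so the share cannot be set against chance. In start libraries these were 2169 CPM in the first library headed Male4 at the mitochondrial locus 298 to 1237, 2714 CPM in the library headed Male3 at the scaffold locus 11611 to 13345, and 20227 CPM in male 1 at the chromosome 5 locus 108065171 to 108066021. Start male 1 also stood apart with 3167 CPM at the chromosome 2 locus 39501426 to 39501616 and with 1003 CPM at the chromosome 2 locus 62543450 to 62549251. The first library headed Male4 did so with 3372 CPM at the chromosome 7 locus 13590820 to 13598442.

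In poly(A) libraries they were 0.341 CPM in male 2 at the chromosome 4 locus 12626401 to 12629981 (1 count against 0 elsewhere), 9.62 CPM in male 5 at the chromosome 5 locus 143009290 to 143047986, and 2831 CPM in male 1 at the chromosome 7 locus 13590820 to 13598442. The others were 1490 CPM in male 5 at the chromosome 2 locus 62543450 to 62549251 and 10292 CPM in male 2 at the scaffold locus 11290 to 14511.

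The difference between ends was another in males than in females at 6 named loci (edgeR sex by assay term). It was -3.23 at the mitochondrial locus 298 to 1237 (adjusted p = 0.00420), 3.23 at the chromosome 5 locus 108065171 to 108066021 (adjusted p = 0.0498) and 2.61 at the chromosome 6 locus 130447212 to 130447337 (adjusted p = 0.0142). The mitochondrial value rests on the wide poly(A) cluster that spans most of the next locus. The chromosome 5 value did not pass with RLE factors (2.76, adjusted p = 0.0922) or without the start library of female 3 (3.03, adjusted p = 0.0727). The other 3 loci were named for having no male count at 1 end, so their terms are a description, and the size of their terms depends on the count added by the fit: 6.76 at the chromosome 2 locus 39501426 to 39501616 (adjusted p = 0.0148), 6.01 at the chromosome 2 locus 151200805 to 151201022 (adjusted p = 0.0314) and -14.14 at the chromosome 3 locus 50784807 to 50791507 (adjusted p = 1.07e-06).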

How the results depend on the processing

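The count of loci that differed moved by over 1.5 times with some filters and locus definitions, and the number tested moved too. The main fit called 10131 of 13100 loci tested (77.3%). No filter on low counts gave 17516 of 27883 tested, 11505 higher at the start. A mean of 10 CPM or more gave 6163 of 7308, 3242 higher at the start. Neighbouring loci joined gave 5410 of 8300 (65.2%), 2689 higher at the start and 2721 at the poly(A) end. Sites under 1 CPM left out gave 5459 of 8591 (63.5%), 2758 and 2701. The last 2 were chosen after seeing the data. Leaving out 1 library at a time gave 10582 to 11211 loci, with 13921 to 14744 tested. Of these, 5850 to 6529 were higher at the start and 4327 to 4868 at the poly(A) end. Without both libraries headed Male4 it was 11016 of 15516. In males 1, 5 and 6 the replicate block gave 9273 of 14461 loci, 5726 higher at the start and 3547 at the poly(A) end. Without the block the same libraries gave 10211 of 14461.

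The difference in the share of the 100 highest loci passed with a gap of 5000 bases (5.87 points, exact permutation p = 0.0108) and with the left-out scaffold kept (7.32, exact permutation p = 0.00866), and ranged from 2.30 to 4.66 with 1 library left out (4.51 without poly(A) male 3). Such leave-one-out ranges were -41.0 to -30.6 for the loci holding the upper 50% of the counts, -13.4 to -12.4 points for the highest site, -0.184 to -0.105 for the spread between libraries, 9 to 10 for the chromosomes and 4 to 6 for the length classes that passed.

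Turns of direction were listed only where the main value or the alternative passed. Other turns, such as that of the chromosome 5 locus 92441766 to 92446810 with RLE factors, are not in this list. Directions turned at that locus with DESeq2 (0.45). With loci capped at 1000 CPM they turned for lengths of 10000 to under 20000 bases (0.0453 points). Under that cap they also turned for chromosomes 2 (1.04), 3 (0.542), 7 (0.0975), 8 (0.772) and the mitochondrial sequence (0.334). The cap takes counts from the highest loci only. Sites with a total under 25 were not analysed here, and depth limits low loci: 13100 of 27883 passed the filter.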
